A study of Homo sapiens with 2 samples.

Results

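The keratins of simple and of stressed epithelium were compared between 2 human lung cancer cell lines. The genes were chosen by symbol: KRT7, KRT8, KRT18 and KRT19 of simple epithelium, KRT6A, KRT6B and KRT17 of wounded epithelium, and KRT15, KRT80 and KRT81. They are 10 of 30843 symbols in the transcript tables, with 15 of 65535 listed transcripts. MTAC-P was derived from PC9 and resists EGFR tyrosine kinase inhibitors (EGFR-TKI), per the labels. PC9 is its parent, a lung adenocarcinoma line with an activating EGFR deletion that is sensitive to these drugs. Both were grown in DMEM with serum, and the labels name no drug in the medium of either culture. Each line is represented by 1 RNA-seq library. The design text of the series mentions triplicates, but 1 column of values was at hand per line, and whether a value pools or averages several cultures is not stated. Nor do the sources used here say whether MTAC-P is 1 clone. With 1 library per line there is no replicate check, no standard error and no test, so every difference below is a difference between these libraries.

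Keratins are the intermediate filament proteins of epithelial cells. A filament is built from pairs of an acidic (type I) and a basic (type II) chain, so each cell type makes keratins of both kinds. KRT8 and KRT18 are the pair of simple epithelia such as gut, liver and glands, and KRT7 and KRT19 are added in ducts, airways and many adenocarcinomas. KRT6A and KRT6B, type II keratins, and their type I partners KRT16 and KRT17 are switched on in epidermis at wound edges and in hyperproliferative skin. The type II genes and KRT18 lie together on chromosome 12, and the other type I genes on chromosome 17.

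KRT6A and KRT6B are near-identical copies in their coding sequence. It is shown first because the separate values of both genes depend on bases that differ. Bases outside the coding sequence were not aligned, but entered the comparison of whole transcripts below. KRT6A lies on chromosome 12 from 52487174 to 52493257 and KRT6B from 52446651 to 52452126, both on the minus strand of GRCh38 (GENCODE release 29), with 35.0 kb between them. Each has 9 exons. Of the 1692 coding bases, stop codon left out, 42 differ between them and 97.5% are identical. The 90 coding bases within 1 exon that differ most, coding positions 656 to 745 in exon 2, hold 10 of the differences, given here in capitals. They lie at chr12:52491532-52491621 in KRT6A and at chr12:52450416-52450505 in KRT6B.
KRT6A: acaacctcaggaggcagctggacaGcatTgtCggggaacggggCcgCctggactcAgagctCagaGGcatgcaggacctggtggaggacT
KRT6B: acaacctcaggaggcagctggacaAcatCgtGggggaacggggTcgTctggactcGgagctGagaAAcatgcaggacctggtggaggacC
Counted from the first base of the start codon, with the KRT6A base first, these are G680A, T684C, C687G, C699T, C702T, A711G, C717G, G721A, G722A and T745C.

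Over other stretches no base tells the copies apart. The longest identical run is 269 coding bases in exon 1, coding positions 148 to 416, at chr12:52492773-52493041 in KRT6A and chr12:52451663-52451931 in KRT6B. A read that lies wholly inside it can come from either gene, or from the neighbouring gene KRT6C, which is identical over these positions.
KRT6A and KRT6B: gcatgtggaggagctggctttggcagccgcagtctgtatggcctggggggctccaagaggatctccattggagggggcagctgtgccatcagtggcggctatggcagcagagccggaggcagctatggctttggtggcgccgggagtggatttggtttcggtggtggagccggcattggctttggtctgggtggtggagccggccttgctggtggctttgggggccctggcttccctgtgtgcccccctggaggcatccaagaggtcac

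KRT6C is closer still to KRT6B. Its coding sequence differs from that of KRT6B at 25 bases and from that of KRT6A at 35. At the 42 positions where KRT6A and KRT6B differ, KRT6C carries the KRT6B base at 26 and the KRT6A base at 16. To put this on the scale of a read, each transcript was cut into overlapping words of 50 bases and each word was looked up in the annotated transcripts of other genes, forward strand only. Of the 2261 words of KRT6A, 1376 were found in no other gene, and of the 2233 words of KRT6B, 1182. KRT6A shared 28.5% of its words with KRT6B and 35.2% with KRT6C, and KRT6B shared 28.9% with KRT6A and 44.8% with KRT6C.

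**Figure D1:**
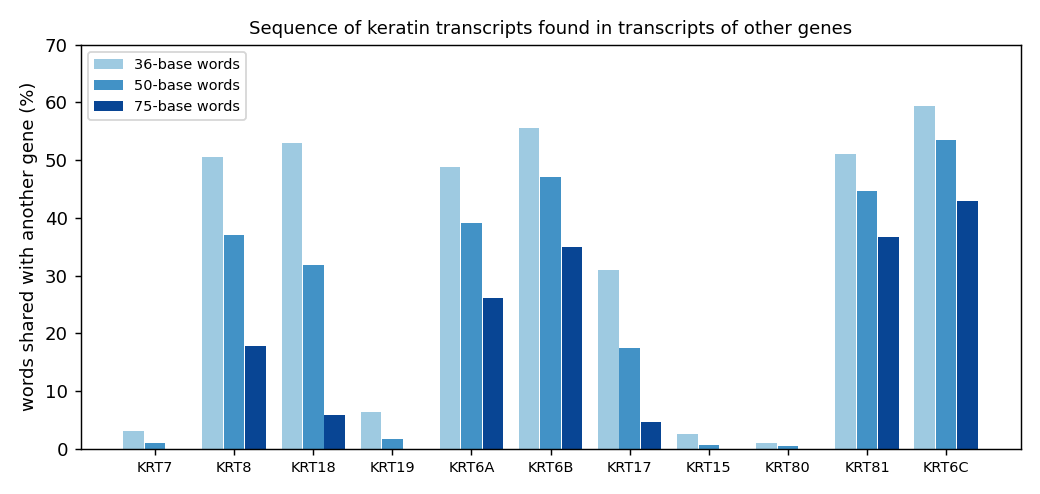
Percentage of the words of a keratin transcript (vertical axis) that also occur in an annotated transcript of another gene, for words of 36, 50 and 75 bases, the most abundant listed transcript of each gene. KRT7, KRT19, KRT15 and KRT80 stay below 7%, while KRT6A, KRT6B, KRT6C, KRT81, KRT8 and KRT18 share between 31.8% and 53.6% of their 50-base words.

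Levels are in FPKM, fragments scaled to the length of the transcript and to the mapped fragments of the library, so levels of different genes can be set side by side. A gene's level is the sum of its listed transcripts. The difference between the lines is given as a log2 ratio, log2((MTAC-P + 1)/(PC9 + 1)). The pseudocount of 1 pulls the ratio of low genes towards 0. The comparison took in the 11435 genes whose mean of both libraries was 1 FPKM or more, and an absolute log2 ratio of at least 1 is called 2-fold. No counts accompany the values, so the depth behind them is unknown and no counting interval can be given. The listed values summed to 685082 FPKM in MTAC-P and 693444 FPKM in PC9. In these bulk libraries more cells with a keratin and more of its RNA per cell cannot be told apart, nor can fewer cells and less RNA per cell.

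Both lines had the keratins of a simple epithelium at high levels. KRT7, KRT8, KRT18 and KRT19 together stood at 3680 FPKM in MTAC-P and 3464 FPKM in PC9, which was 95.9% of all keratin FPKM in MTAC-P and 98.4% in PC9. Epithelial markers outside the keratins were also well above 1 FPKM in both lines, but not all at equal levels. ESRP1 stood at 21.7 FPKM in MTAC-P and 36.1 FPKM in PC9 (log2 ratio -0.71). CLDN4 stood at 68.3 FPKM in MTAC-P and 99.0 FPKM in PC9 (-0.53). Of the 9 epithelial markers, keratins included, 1 had a log2 ratio above 0 and none was at 2-fold. The adhesion gene EPCAM stood at 156 FPKM in MTAC-P and 161 FPKM in PC9, and CDH1, which encodes E-cadherin, at 35.1 FPKM in MTAC-P and 35.2 FPKM in PC9. Of the 5 lung adenocarcinoma markers 4 reached the mean of 1 FPKM, and together they summed to 19.3 FPKM in MTAC-P and 14.0 FPKM in PC9. The mucin gene MUC1 stood at 12.9 FPKM in MTAC-P and 10.1 FPKM in PC9, and the surfactant gene SFTPC at 2.80 FPKM in MTAC-P and 1.21 FPKM in PC9. NKX2-1, the lung lineage factor, was the marker below the mean of 1, listed at 0 in MTAC-P and at 0.0787 FPKM in PC9. Markers of basal and squamous cells, leukocytes and fibroblasts were low in both lines. Of the mesenchymal markers, described below, CDH2 was not low in MTAC-P, at 14.9 FPKM against 1.09 FPKM in PC9. The 6 markers summed to 20.02 FPKM in MTAC-P, most of it CDH2, and to 2.42 FPKM in PC9. In MTAC-P VIM stood at 2.52 FPKM and SNAI2 at 2.35 FPKM. TWIST1, ZEB1 and ZEB2 were each below 1 FPKM in both lines. The 5 basal and squamous markers (TP63, KRT5, KRT14, DSG3 and SOX2) summed to 1.39 FPKM in MTAC-P and 0.821 FPKM in PC9. The 5 leukocyte markers summed to 0.771 FPKM in MTAC-P and 1.34 FPKM in PC9, and the 5 fibroblast markers to 1.61 FPKM in MTAC-P and 1.29 FPKM in PC9. Of the endothelial markers, CDH5 was the 1 gene that reached the mean of 1, at 4.13 FPKM in MTAC-P and 3.34 FPKM in PC9.

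The main difference was in KRT6B and KRT6A. KRT6B stood at 71.7 FPKM in MTAC-P and 1.84 FPKM in PC9, a log2 ratio of 4.68. KRT6A stood at 17.2 FPKM in MTAC-P and 0.221 FPKM in PC9, a log2 ratio of 3.90. By these ratios, the difference on the log2 scale, KRT6B was the second highest and KRT6A the sixth highest of all genes compared. In the order of levels over all symbols, KRT6B was at position 1080 in MTAC-P and 10291 in PC9, and KRT6A at position 3912 in MTAC-P and 13756 in PC9.

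KRT6A and KRT6B were the 2 members at 2-fold or more, both higher in MTAC-P, and no member was 2-fold lower. Of all genes compared, 3.48% were 2-fold or more higher in MTAC-P and 4.29% lower, together 7.77%. Of the 10 keratins 9 reached the mean of 1 FPKM, and KRT6A did so only through its level in MTAC-P, so the count of 2 is a description. Because reads of the copies can be assigned to the wrong one, their sum is safer than either value. Together they stood at 89.0 FPKM in MTAC-P and 2.06 FPKM in PC9, a log2 ratio of 4.88 and a plain fold of 43.2. KRT6C was listed at 0 in both lines, which with so much shared sequence can also be a failed estimate. The sum may therefore hold reads of KRT6C. By the separate values KRT6B was the larger of the pair in both lines, at 4.16 times the level of KRT6A in MTAC-P and 8.30 times in PC9. These ratios share the limits of the separate values, and that of PC9 rests on a KRT6A level of 0.221 FPKM.

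**Figure D2:**
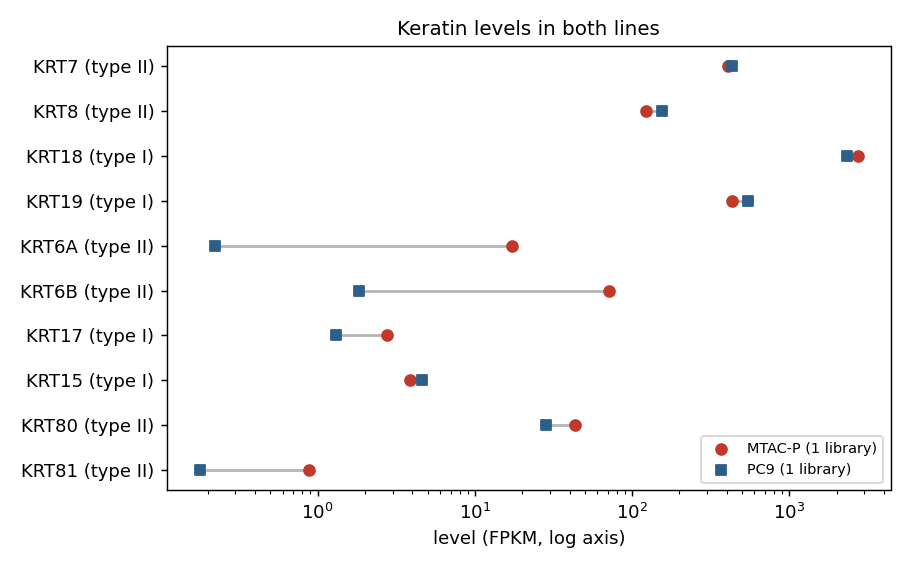
Level of each keratin in FPKM (horizontal log axis) in MTAC-P (circles) and PC9 (squares), 1 library each, joined by a line. The simple epithelial keratins lie between 122 and 2720 FPKM with the lines close together, while KRT6A and KRT6B are far apart.

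KRT17, the third wound keratin, did not reach 2-fold. It stood at 2.75 FPKM in MTAC-P and 1.31 FPKM in PC9, a log2 ratio of 0.70. The plain fold was 2.10, so its side of 2-fold depends on the pseudocount, and with a pseudocount of 0.1 the log2 ratio was 1.01. KRT16, another type I partner of KRT6 in skin, stood at 3.62 FPKM in MTAC-P and 2.72 FPKM in PC9 (0.31), and KRT14 at 0.00872 FPKM in MTAC-P with 0 listed in PC9. The level of KRT6B was thus 26.1 times that of KRT17 in MTAC-P, against 1.40 times in PC9. Only 1 of the 6 coding KRT17 transcripts in GENCODE was listed, against all of them for KRT6A and KRT6B, so the level of KRT17 covers a part of the gene. KRT17 lies on chromosome 17 from 41619441 to 41624842, next to KRT16, and shared 17.4% of its 50-base words with other genes, mostly its pseudogenes.

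**Figure D3:**
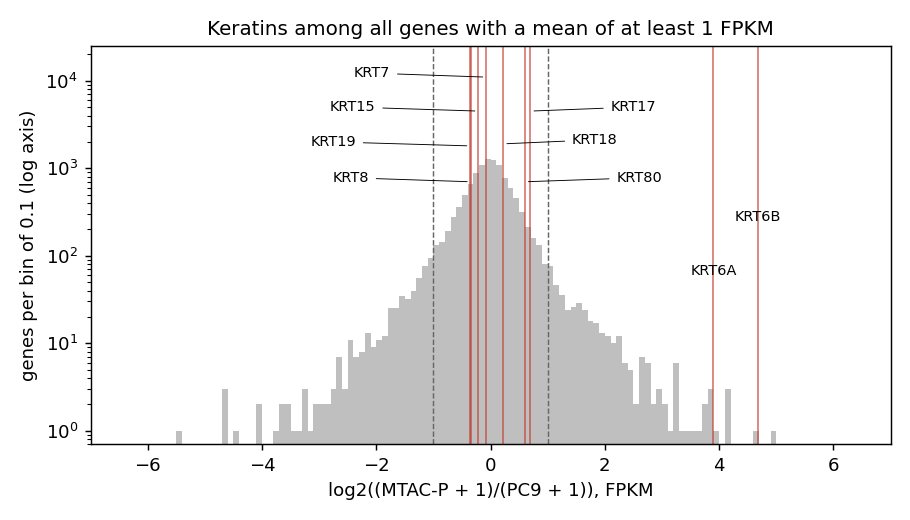
Number of genes (vertical log axis) by log2 ratio of MTAC-P over PC9 in bins of 0.1, for the 11435 genes compared. Red lines mark the 9 keratins compared and dashed lines mark 2-fold. KRT6A and KRT6B lie in the upper tail and the other 7 within 2-fold.

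Among the simple epithelial keratins, KRT18 was higher in MTAC-P and KRT7, KRT8 and KRT19 lower, all by less than 2-fold. KRT18, the type I partner of KRT8, was the most abundant keratin of both lines at 2719.6 FPKM in MTAC-P and 2329 FPKM in PC9 (log2 ratio 0.22). This was 70.9% of all keratin FPKM in MTAC-P and 66.2% in PC9, and KRT18 was at position 42 of all symbols in both. KRT19, the smallest keratin, which lacks most of the tail of other type I chains, stood at 429.9 FPKM in MTAC-P and 549 FPKM in PC9 (-0.35). KRT7, widely used to mark lung adenocarcinoma, stood at 409 FPKM in MTAC-P and 430.1 FPKM in PC9 (-0.07). KRT8 stood at 122 FPKM in MTAC-P and 155 FPKM in PC9 (-0.35). For scale, the middle 95% of all genes compared lay between -1.27 and 1.17 and the median was -0.02.

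The difference in KRT18 was in 1 of its 2 listed transcripts. ENST00000388837 stood at 1217 FPKM in MTAC-P and 843 FPKM in PC9, a log2 ratio of 0.53. ENST00000388835 stood at 1502 FPKM in MTAC-P and 1486 FPKM in PC9, a log2 ratio of 0.02. The first made up 44.8% of the gene's level in MTAC-P and 36.2% in PC9. How Cufflinks divides reads between overlapping transcripts was not tested.

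KRT18 exceeded its partner KRT8 by 22.3 times in MTAC-P and 15.0 times in PC9. These ratios cover a part of both genes: 1 of 9 coding KRT8 transcripts in GENCODE was listed and 2 of 3 of KRT18. KRT8 (chromosome 12, 52897187 to 52949954, minus strand) and KRT18 (52948871 to 52952901, plus strand) lie at the end of the cluster. Their annotated gene spans, over all transcripts of each, overlap by 1084 bases. Whether the listed KRT8 transcript reaches the overlap was not checked. Only if it does could reads from there be counted for either gene, as the sources used here give no strand setting. Both also have many processed pseudogenes: KRT8 shared 37.1% of its 50-base words with 37 other genes and KRT18 31.8% with 43, most often with KRT8P3 and KRT18P11.

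Summed by kind, type I and type II keratins had nearly the same shares in both lines. The 29 type I genes summed to 3171 FPKM in MTAC-P and 2899 FPKM in PC9, which was 82.6% of all keratin FPKM in MTAC-P and 82.4% in PC9. The 25 type II genes summed to 666 FPKM in MTAC-P and 620.02 FPKM in PC9. KRT18 alone gave 70.9% of all keratin FPKM in MTAC-P and 66.2% in PC9, so it largely sets the type I share. The sums cover listed transcripts only, and KRT86 was not listed. Within type II, KRT6A and KRT6B made up 2.32% of all keratin FPKM in MTAC-P and 0.0585% in PC9, while KRT7 and KRT8 were both lower in MTAC-P than in PC9.

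KRT80, a type II keratin found in many epithelia, stood at 43.6 FPKM in MTAC-P and 28.4 FPKM in PC9, a log2 ratio of 0.60. Both of its coding transcripts were listed and both were higher in MTAC-P. ENST00000394815 stood at 29.1 FPKM in MTAC-P and 18.05 FPKM in PC9, and ENST00000313234 at 14.5 FPKM in MTAC-P and 10.4 FPKM in PC9. KRT80 (chromosome 12, 52168996 to 52192000) shared 0.42% of its 50-base words with other genes, the lowest of the 10.

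KRT15, a keratin of basal cells in stratified epithelium, stood at 3.84 FPKM in MTAC-P and 4.61 FPKM in PC9 (-0.21). Its most abundant transcript, ENST00000393976, gave 78.6% of its level in MTAC-P and 83.3% in PC9. KRT81, a keratin of the hair cortex, was below the mean of 1 FPKM, at 0.882 FPKM in MTAC-P and 0.178 FPKM in PC9 (0.68). It shared 38.4% of its 50-base words with KRT86, a neighbouring hair keratin that was not listed, so reads of KRT86 could have been counted for it.

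The keratins above 1 FPKM were scattered over both clusters. On chromosome 12, 8 of the 26 listed keratin genes reached 1 FPKM in either line and 10 were listed at 0 in both. On chromosome 17 this was 6 and 13 of 28. KRT6B, KRT6C and KRT6A are consecutive, and the genes on either side were low: KRT75, before KRT6B, was listed at 0 in both lines, and KRT5, after KRT6A, stood at 1.03 FPKM in MTAC-P and 0.413 FPKM in PC9. KRT5 is the type II keratin of basal cells. KRT15 and KRT19 are neighbours on chromosome 17 and were both lower in MTAC-P than in PC9.

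**Figure D4:**
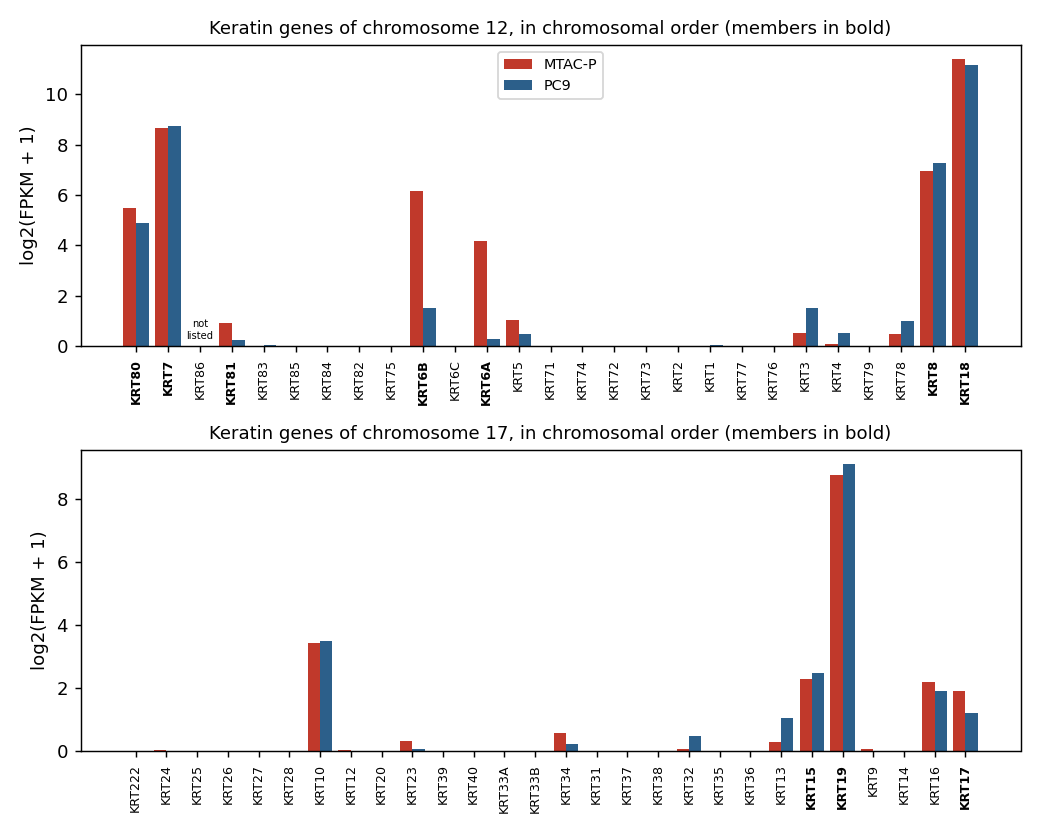
Level of every coding keratin gene as log2(FPKM + 1) (vertical axis) in the order of the genes along chromosomes 12 and 17, in MTAC-P (left bar) and PC9 (right bar). KRT6B and KRT6A stand out in MTAC-P between genes at or near 0, and KRT86 was not listed.

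The other 44 keratin genes carried little of the total, 16.4 FPKM in MTAC-P and 18.5 FPKM in PC9, and 23 of them were listed at 0 in both lines. Only 3 reached the mean of 1 FPKM and none was at 2-fold. Besides KRT16 these were KRT10, the type I keratin of differentiating epidermis, at 9.69 FPKM in MTAC-P and 10.3 FPKM in PC9 (-0.07), and KRT3, a keratin of the cornea, at 0.450 FPKM in MTAC-P and 1.85 FPKM in PC9 (-0.97).

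Genes whose products anchor or surround keratin filaments were compared by lists. Desmosomes join the filaments of neighbouring cells, and of 16 desmosome and plakin genes 11 were compared and none was at 2-fold (median -0.02, beside -0.02 for all genes). DSP, the plakin that binds keratins at the desmosome, stood at 31.2 FPKM in MTAC-P and 35.99 FPKM in PC9 (-0.20), and the cadherin DSG2 at 38.8 FPKM in MTAC-P and 32.4 FPKM in PC9 (0.25). Hemidesmosomes join filaments to the basement membrane. Of 6 hemidesmosome genes 4 were compared, 2 were 2-fold or more higher in MTAC-P, against 3.48% of all genes, and none lower (median 0.85). Both encode laminin chains of the basement membrane. LAMA3 stood at 11.5 FPKM in MTAC-P and 2.002 FPKM in PC9 (2.05), and LAMB3 at 59.7 FPKM in MTAC-P and 27.6 FPKM in PC9 (1.09). The receptor gene ITGB4 was below the mean of 1 FPKM.

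Of 14 cornified envelope genes, which build the protein shell of dying keratinocytes, 6 were compared. Of these, 2 were 2-fold or more higher in MTAC-P, against 3.48% of all genes, and none lower (median -0.02). SPRR1B, an envelope precursor, stood at 23.1 FPKM in MTAC-P and 2.22 FPKM in PC9 (2.90). CSTA, the protease inhibitor cystatin A, stood at 6.04 FPKM in MTAC-P and 0.202 FPKM in PC9 (2.55), and passed the minimum mean through MTAC-P. The late genes LOR, listed at 0 in both lines, and FLG, at 0.00229 FPKM in MTAC-P and 0.0132 FPKM in PC9, were at or near 0.

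Of 16 transcription factors known to act on keratin or keratinocyte genes, 13 were compared. Of these, 1 was at 2-fold, against 7.77% of all genes (median -0.18). GRHL3, a factor of epidermal barrier formation, stood at 2.27 FPKM in MTAC-P and 5.75 FPKM in PC9 (-1.04). Of the 13, 5 had a log2 ratio above 0 and the rest were below. The highest was that of FOSL1, at 64.0 FPKM in MTAC-P and 34.9 FPKM in PC9 (0.86). TP63, the master factor of stratified epithelium, was below the mean of 1 FPKM. It stood at 0.33025 FPKM in MTAC-P and 0.33448 FPKM in PC9. Of 11 genes of keratin-binding partners 9 were compared and none was at 2-fold (median 0.22). SFN, the 14-3-3 protein that binds KRT17 and KRT18, stood at 143 FPKM in MTAC-P and 99.3 FPKM in PC9 (0.52), and the small heat shock protein HSPB1 at 770.0 FPKM in MTAC-P and 1008 FPKM in PC9 (-0.39).

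Of 14 other intermediate filament genes 8 were compared, 1 was 2-fold lower in MTAC-P, against 4.29% of all genes, and none higher (median 0.11). This was BFSP1, a filament gene of the eye lens, at 0.436 FPKM in MTAC-P and 2.01 FPKM in PC9 (-1.07), which passed the minimum mean only through PC9. VIM, the vimentin gene of mesenchymal cells, stood at 2.52 FPKM in MTAC-P and 0.831 FPKM in PC9 (0.94). Of 6 mesenchymal markers 3 were compared, 2 were 2-fold or more higher in MTAC-P, against 3.48% of all genes, and none lower (median 1.22). TWIST1 was listed at 0 in both lines. ZEB2 stood at 0.175 FPKM in MTAC-P and 0.0489 FPKM in PC9, with ZEB1 lower still in both. CDH2, which encodes N-cadherin, stood at 14.9 FPKM in MTAC-P and 1.09 FPKM in PC9 (2.93). The list summed to 20.02 FPKM in MTAC-P, most of it CDH2, and to 2.42 FPKM in PC9. SNAI2, a repressor of epithelial genes, stood at 2.35 FPKM in MTAC-P and 0.438 FPKM in PC9 (1.22), and like VIM passed the minimum mean only through MTAC-P. Their part in the keratin differences was not tested.

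Across scalings, pseudocounts and choices of transcript, KRT6A ranged from 2.09 to 5.75 and KRT6B from 3.49 to 5.21 in log2 ratio, both above 2-fold throughout. KRT6A and KRT6B have 1 listed transcript each, so the choice of transcript could not change them. No member changed the sign of its ratio under any of these settings. A pseudocount could not change a sign, because the same number is added to both levels. The scalings shifted ratios little: KRT7, with the smallest absolute ratio, ranged from -0.11 to -0.05. The ratio of KRT18 was lowest, 0.02, with only its most abundant transcript.

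**Figure D5:**
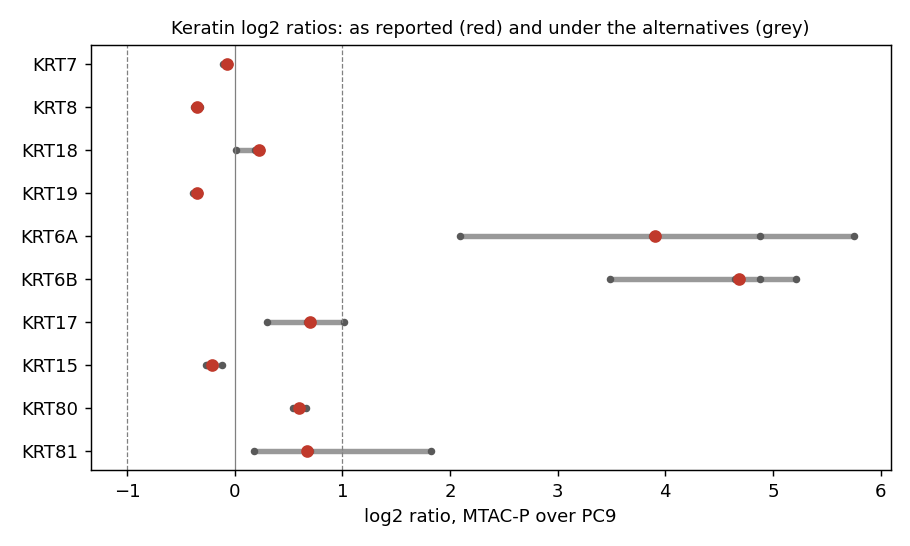
Log2 ratio of MTAC-P over PC9 (horizontal axis) of each keratin as reported (red) and under each alternative setting (grey points, joined by a bar from lowest to highest). Dashed lines mark 2-fold. KRT6A and KRT6B stay above it under every setting, and KRT17 and KRT81 pass it with a pseudocount of 0.1.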

How the data were processed

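RNA of 1 library per line was measured by RNA-seq on an Illumina GAIIx, per the labels. Trim Galore, TopHat and Cufflinks were used with build hg38, per the submitters' processing notes. The sources used here give no versions, read length, strand setting or annotation. For each transcript the authors deposited 1 value, read here as FPKM because Cufflinks is named; the headers state no unit. Each table has 65536 lines, a spreadsheet's row limit, and its sorted transcript IDs stop at number 437205, so those numbered higher were not analysed here. Values were summed per symbol and compared as a log2 ratio with a pseudocount of 1 (pandas 2.3.3, Python 3.11.15). The steps were tested on simulated data without noise, which checks the arithmetic only, not low levels or reads shared between copies. Coordinates and sequences are from GENCODE release 29 (GRCh38, the assembly that hg38 names); 14 of the 15 listed transcripts were matched. All 10 keratins are named, with other keratins at a mean of at least 1 FPKM and, per list, up to 4 genes at 2-fold or else the 2 most abundant; others were named after their values were seen. Members, lists and alternatives were chosen with earlier results of these data known. One gene of the hemidesmosome list is not reported here and is left out of its counts.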

Additional observations from a re-analysis of the deposited data

How the results depend on the processing

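Of 92 keratin log2 ratios under alternatives, 90 kept their direction and side of 2-fold, and 2 passed it. Many of the 90 could not change, and no pseudocount could reverse a direction. All listed transcripts of the members are protein-coding, so keeping only such transcripts changed nothing. Choice of transcript cannot alter a member with 1 listed transcript, nor can adding pseudogenes alter a member without any. With a pseudocount of 0.1 KRT17 reached 1.01 and KRT81 1.82, both low genes on which the pseudocount weighs. The 2 keratins at 2-fold became 4 at 1.5-fold, with KRT17 and KRT80, and 1 when KRT6A and KRT6B were summed. Adding pseudogenes to their parents, and words of 36 or 75 bases, were chosen after seeing the data. Of such words KRT6A shared 48.8% at 36 bases and 26.2% at 75, and KRT6B 55.6% at 36 and 34.9% at 75, since longer words are more often unique. The 888 genes at 2-fold became 1344 with a pseudocount of 0.1, 284 with 5, 431 at a minimum mean of 5, 174 at 4-fold and 2307 at 1.5-fold; the last 3 compare fewer genes or use another threshold. No scaling moved the median log2 ratio of all genes by over 0.1. No paired analysis was possible because there was 1 library per line, and no library could be left out. Depth is unknown, so KRT81 and the PC9 level of KRT6A have no precision.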

Other observations

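Keratin pseudogenes, taken by symbol (KRT, a number and P), had low values in both lines. The 46 listed symbols summed to 4.01 FPKM in MTAC-P and 2.18 FPKM in PC9, and 29 were listed at 0 in both. The 18 KRT18 pseudogenes summed to 2.91 FPKM in MTAC-P and 1.15 FPKM in PC9, and the 17 KRT8 pseudogenes to 0.976 FPKM in MTAC-P and 0.839 FPKM in PC9. KRT18P5 was the 1 pseudogene with a mean of at least 1 FPKM, at 1.86 FPKM in MTAC-P and 0.471 FPKM in PC9 (log2 ratio 0.96). Whether these values come from reads of KRT18 itself was not tested. Adding them to KRT18 left its log2 ratio at 0.22.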
